A study of Homo sapiens with 8 samples.

Results

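Antisense RNA genes carry the symbol of a neighbouring or overlapping gene followed by AS and a digit, and are read from the strand opposite to it. The promoter windows studied here are those on chromosomes 1 to 22 whose name ends in that way. They number 151 of the 38157 windows measured and carry 81 antisense names, with 47 names on 2 windows, 27 on 1 window and 7 on 3 or more. A further 24 such windows on X and Y were not used. Of the 151, 148 held enough reads to be tested, under 79 names. The names are spread unevenly: chromosome 3 held 39 of the windows and chromosome 13 held 24, which is 25.8% and 15.9% of them, against 5.79% and 2.25% of all autosomal windows.

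The cells were SiHa, an established human cervical cancer line (squamous cell carcinoma), seeded without any other treatment in a transwell, a well with a porous membrane that cells can cross. After 10 h the cells that had crossed (migrated) and those that had not (non-migrated) were collected separately. From each fraction an input library of sonicated chromatin, made without antibody, and a library of chromatin pulled down with an antibody to H3K9me3 were sequenced, in 2 paired replicate sets, which gives 4 groups with n = 2. The series asks how H3K9me3 differs between migrating and non-migrating cells of this line.

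H3K9me3, the trimethylated form of lysine 9 on histone H3, is written by enzymes such as SUV39H1 and read by HP1 proteins, and marks compact chromatin over repeats and silenced genes. Active promoters, which often lie in stretches rich in CG dinucleotides (CpG islands), usually carry little of it. Antisense transcripts are mostly noncoding. Some start from the same CpG island as their sense gene and run away from it, others start inside or downstream of the sense gene and run across it, and a few, such as the antisense RNA of the imprinted GNAS locus, take part in silencing their neighbours.

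The sequences below show examples of the DNA at which antisense RNAs of enriched and of lower windows start. They are the RefSeq promoters (GRCh38.p14) of 6 antisense genes, from 250 bases before to 50 bases after the start, 5′ to 3′ on the strand of the antisense gene, with every CG dinucleotide in capitals. They were taken from the 27 names with 1 RefSeq start whose antisense-strand windows were all called in 1 direction, leaving out those over which a protein-coding gene lies, which kept 9 names. Both enriched names left are shown, with the 4 of lowest H3K9me3 among the lower names left, which are not the lowest of all antisense windows. The files use hg19, so whether a RefSeq start lies within the measured window was not checked.
ZNF32-AS3: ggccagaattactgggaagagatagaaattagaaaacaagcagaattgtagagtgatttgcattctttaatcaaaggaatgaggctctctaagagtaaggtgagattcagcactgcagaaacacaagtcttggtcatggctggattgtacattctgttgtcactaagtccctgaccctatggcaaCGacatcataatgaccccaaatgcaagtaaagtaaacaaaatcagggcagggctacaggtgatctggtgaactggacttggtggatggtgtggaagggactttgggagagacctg
KIF25-AS1: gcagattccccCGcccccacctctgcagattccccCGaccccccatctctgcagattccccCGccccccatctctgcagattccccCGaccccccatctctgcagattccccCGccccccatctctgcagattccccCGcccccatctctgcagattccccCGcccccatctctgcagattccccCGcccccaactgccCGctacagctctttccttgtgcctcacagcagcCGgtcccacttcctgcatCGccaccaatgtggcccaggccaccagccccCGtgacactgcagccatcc
TPRG1-AS1: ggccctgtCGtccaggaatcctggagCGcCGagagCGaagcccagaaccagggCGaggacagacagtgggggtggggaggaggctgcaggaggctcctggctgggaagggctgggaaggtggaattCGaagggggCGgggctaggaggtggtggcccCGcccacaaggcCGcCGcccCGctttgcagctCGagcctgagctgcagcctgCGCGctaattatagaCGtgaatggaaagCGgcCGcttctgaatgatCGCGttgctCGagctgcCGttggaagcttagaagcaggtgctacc
ENTPD3-AS1: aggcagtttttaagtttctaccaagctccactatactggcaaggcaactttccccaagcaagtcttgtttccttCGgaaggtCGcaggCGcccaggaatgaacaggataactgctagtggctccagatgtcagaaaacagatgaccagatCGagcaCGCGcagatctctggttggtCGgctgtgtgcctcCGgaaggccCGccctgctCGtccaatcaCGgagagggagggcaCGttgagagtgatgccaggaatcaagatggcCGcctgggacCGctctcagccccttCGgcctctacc
CYP1B1-AS1: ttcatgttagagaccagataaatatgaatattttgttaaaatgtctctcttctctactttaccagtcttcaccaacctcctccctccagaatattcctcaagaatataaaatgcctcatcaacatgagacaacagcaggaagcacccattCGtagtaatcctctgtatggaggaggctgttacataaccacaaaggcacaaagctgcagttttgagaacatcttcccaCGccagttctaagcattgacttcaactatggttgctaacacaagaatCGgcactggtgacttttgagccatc
C13orf44-AS1: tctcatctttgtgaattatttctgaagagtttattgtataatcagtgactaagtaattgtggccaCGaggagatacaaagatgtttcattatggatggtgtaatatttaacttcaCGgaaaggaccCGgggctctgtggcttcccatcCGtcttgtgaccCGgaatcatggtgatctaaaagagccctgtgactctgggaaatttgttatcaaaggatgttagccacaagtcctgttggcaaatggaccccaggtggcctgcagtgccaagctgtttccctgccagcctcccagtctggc

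ZNF32-AS3 (chr10:43628567-43628866, plus strand) and KIF25-AS1 (chr6:167997028-167997327, minus strand) are names of enriched windows, and the other 4 are names of windows low in the mark. The ZNF32-AS3 promoter holds 1 CG in 300 bases at a GC content of 44.0%. KIF25-AS1 holds 12 at a GC content of 66.7%. TPRG1-AS1 (chr3:188947590-188947889, minus strand) holds 21 CG dinucleotides and ENTPD3-AS1 (chr3:40453259-40453558, minus strand) 15. CYP1B1-AS1 (chr2:38130855-38131154, plus strand) holds 3, and C13orf44-AS1, which RefSeq calls SMIM2-AS1 (chr13:44110299-44110598, plus strand), holds 5. Whether any of these starts, CG-rich or CG-poor, lies within a measured window was not checked, so none need be the DNA of the window called.

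Reads in promoter windows ranged from 88028 (H3K9me3, migrated, set 1) to 1729061 (input, non-migrated, set 2), and the median window held 1 to 40 reads. The antisense windows together held 315 to 6968 reads per library, so single windows often rest on few reads, and the migrated H3K9me3 library of set 1 had no read in 30.5% of all windows. Set 1 was made with another kit than set 2 and had duplicate reads removed, per the labels' protocols. The cell line itself could not be checked against marker genes, since only H3K9me3 and input at promoters were measured. Each window is given below as the log2 of H3K9me3 over input after scaling of library sizes, averaged over both sets and fractions, with its standard error (SE). A value of 0 marks the centre set by that scaling and not the absence of the mark.

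Windows with antisense names ranged widely in H3K9me3, with calls in shares near those of all windows. With limma's test and Benjamini-Hochberg adjustment over all 36440 tested windows, 20 of 148 were enriched over input, 61 were lower and 67 were neither. The background was 15.9% of all tested windows enriched and 35.2% lower, against 13.5% and 41.2% of antisense windows. The median antisense window lay at log2 -0.66, from -3.69 to 1.97, and the median of all autosomal windows at -0.39. The 84 tested windows named for the sense genes of the same names had 10.7% enriched, 35.7% lower and a median of -0.67. Windows with LINC names, another class of long noncoding RNA, stood on the other side, with 59 of 192 enriched, 31 lower and a median of 0.32. All 20 enriched antisense windows were above input in both sets and both fractions, as 49 of the 61 lower ones were below. The calls rest on these same library pairs, so this agreement is a description.

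The split between enriched and lower depends on where the centre is put. With the deposited scaling constants 0 antisense windows were enriched and 90 lower (0% and 60.8%, against 0.933% and 54.0% of all windows), and the median of all tested windows moved from -0.34 to -1.30. With no filter on low reads 32 were enriched and 50 lower (21.2% and 33.1%, against 22.4% and 28.0% of all windows). With 2 added to each count it was 38 and 52 (25.7% and 35.1%, against 24.4% and 29.4%). Among the 73 windows with a mean of at least 20 reads it was 23 and 16, or 31.5% enriched and 21.9% lower, against 30.04% and 26% of all windows. There the antisense windows had the smaller share of lower calls and a median above 0, at 0.11. That mean counts H3K9me3 reads as well as input reads, so the filter itself favours windows high in the mark. It cannot show whether the larger share of lower calls elsewhere depends on coverage. The median antisense window lay below the median of all tested windows each time: the difference was -0.31 on the log2 scale as first given, and -0.27, -0.24, -0.18 and -0.09 in those 4 settings in the order used here. Leaving out the migrated input of set 1 gave 13 enriched windows (8.72%, against 8.78% of all windows), and leaving out its H3K9me3 counterpart gave 40 (26.8%, against 25.4%). The lower count was 33 without the non-migrated input library of set 2 (22.9%, against 21.8%).

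The antisense strand was known for 73 names, for 58 from their own RefSeq start and for the others from the strand of the sense gene. Of the tested windows, 73 lay on the antisense strand, 66 carried an antisense name but lay on the strand of the sense gene, and 9 could not be placed. On the antisense strand 11 were enriched and 30 lower (15.1% and 41.1%, median -0.68). On the sense gene's strand 8 were enriched and 27 lower (12.1% and 40.9%, median -0.47). Over all autosomal windows the shares were 15.2% and 36.2%. So a window under an antisense name is in nearly as many cases on the sense gene's strand as on the antisense strand. For 26 of the 33 names without a window named for the sense gene, such a sense-strand window was present.

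**Figure D1:**
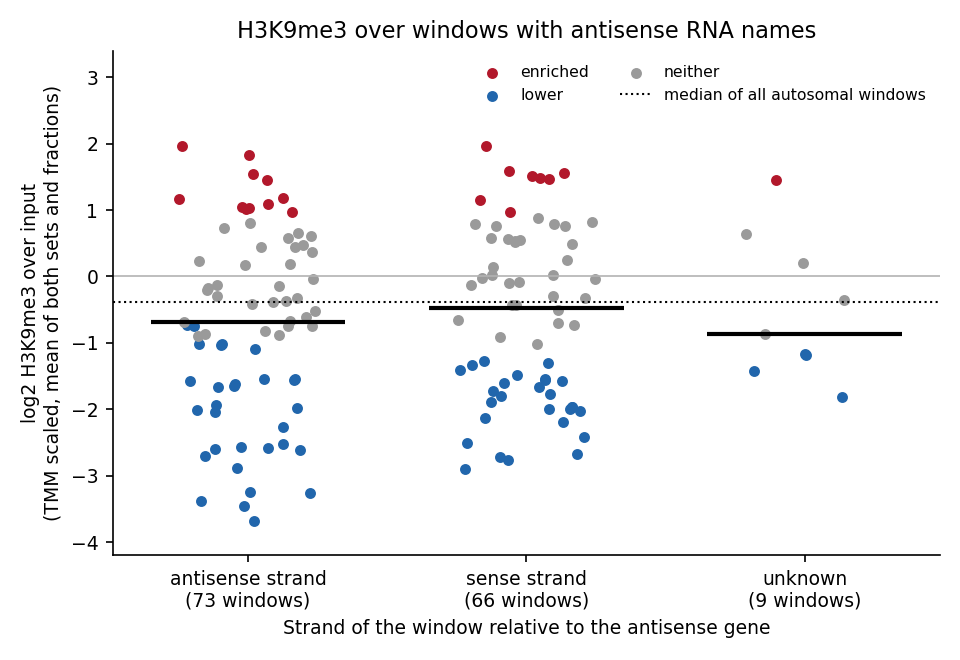
Each point is 1 tested window with an antisense name, placed on the vertical axis by its log2 of H3K9me3 over input and grouped by strand. Black bars are medians (-0.68, -0.47 and -0.87), the dotted line is the median of all autosomal windows (-0.39), and colours give the call by limma's adjusted p; enriched and lower windows occur on both strands.

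MLK7-AS1, antisense to a stress-activated kinase gene and called MAP3K20-AS1 in RefSeq, had the highest value of all antisense windows (chr2:174146664-174148764, antisense strand). Its non-migrated cells gave 15 H3K9me3 reads beside 6 input reads in set 1 and 120 beside 59 in set 2, and its migrated cells 7 beside 12 and 120 beside 53. After scaling this was log2 1.97 (SE 0.31, adjusted p = 3.78e-06), or 3.91-fold over input, and all 4 library pairs lay between 1.49 and 2.39.

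ZNF32-AS3 was next among windows with a mean of at least 20 reads, antisense to a C2H2 zinc finger gene, a family whose clusters are known carriers of H3K9me3. It had 5 windows on chromosome 10, all above 0, from 0.79 to 1.82. The 3 on the antisense strand were enriched, while the 2 on the sense strand gave 0.79 and 0.80 and did not pass. In the highest (chr10:44137320-44141490) H3K9me3 reads were 24 and 5 in set 1 and 133 and 154 in set 2, for non-migrated and migrated cells, beside 18, 29, 42 and 38 input reads. The migrated pair of set 1, with 5 H3K9me3 reads, was the lowest at log2 0.31 and the migrated pair of set 2 the highest at 2.76.

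GNAS-AS1, the antisense RNA of the imprinted GNAS cluster, was enriched on both of its windows, at 1.48 (SE 0.27, adjusted p = 2.73e-05) on the plus strand and 1.46 (SE 0.26, adjusted p = 3.02e-05) on the minus strand. The minus-strand window (chr20:57425858-57427958) held 240 and 264 H3K9me3 reads beside 122 and 100 input reads in set 2. In set 1 it held 15 and 6 beside 14 and 23. All 4 pairs were above 0, from 0.87 to 2.16. MRPL23-AS1, between a mitochondrial ribosomal protein gene and the imprinted H19 gene, was enriched at 1.58 (SE 0.33) on the plus strand and at 0.97 (SE 0.35, adjusted p = 0.0197) on the minus strand, 2 windows that share bases. The minus-strand call did not pass without the non-migrated input of set 1 (adjusted p = 0.115), without the migrated input of set 1 (0.0653) or without the non-migrated H3K9me3 library of set 2 (0.183), nor with approximate contrast errors (0.0767).

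CHL1-AS2, antisense to a neural cell adhesion molecule gene, was enriched on both strands, at 1.56 (SE 0.31) and 1.54 (SE 0.32). BDNF-AS1, whose sense gene encodes a neurotrophin, reached 1.46 (SE 0.34) at chr11:27656074-27658174 but 0.54 (SE 0.32, adjusted p = 0.162) in another window of that name (chr11:27543173-27545273). Both lie on the sense gene's strand. NALCN-AS1, antisense to a sodium leak channel gene, was enriched at 1.16 (SE 0.33), a call that did not pass without the migrated input of set 1 (adjusted p = 0.101). KIF25-AS1, at a kinesin gene, lay at 1.51 (SE 0.36) and 1.05 (SE 0.38) on its 2 windows, both enriched. PARP4-AS1, at a gene of the poly(ADP-ribose) polymerase family, reached 1.45 (SE 0.33), with its 4 pairs close together between 1.33 and 1.62. GRM7-AS3, at a metabotropic glutamate receptor gene, came between MLK7-AS1 and ZNF32-AS3, at 1.96 (SE 0.38), from fewer reads (38 and 39 H3K9me3 reads beside 14 and 24 input reads in set 2). Its mean was below 20 reads, so it lies outside the rule for named windows and was chosen after its values were seen. This window is on the sense gene's strand. The antisense-strand window of GRM7-AS3 lay at 0.57 (SE 0.45, adjusted p = 0.292 by limma) and did not pass. With the deposited constants none of the 10 highest windows passed.

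TIPARP-AS1, antisense to a mono-ADP-ribosyltransferase gene, was the lowest of all (chr3:156392067-156394167, antisense strand). Its H3K9me3 reads were 0 and 0 in set 1 and 4 and 1 in set 2, for non-migrated and migrated cells, while input gave 12, 16, 102 and 80. The fitted value was log2 -3.69 (SE 0.47, adjusted p = 2.65e-07), or 0.0778 of input. RUSC1-AS1 held 9 and 6 H3K9me3 reads beside 104 and 113 input reads in set 2 and 0 in both H3K9me3 libraries of set 1, a value of -2.89 (SE 0.43, adjusted p = 2.13e-06). STEAP2-AS1, at a metalloreductase gene, gave -2.59 (SE 0.41) and ST3GAL6-AS1, at a sialyltransferase gene, -2.52 (SE 0.41). In all 4 of these windows every library pair was below input.

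ST7-AS1 lay at -2.51 (SE 0.39) on the plus strand and -2.60 (SE 0.43) on the minus strand, and C20orf166-AS1 at -2.41 (SE 0.39) on the plus strand. GLYCTK-AS1, at a glycerate kinase gene, gave -2.03 (SE 0.41), HDAC11-AS1, at a histone deacetylase gene, -1.97 (SE 0.43), and HM13-AS1, at the signal peptide peptidase gene, -1.81 (SE 0.37). COX10-AS1, at a gene of heme A synthesis, gave -1.67 (SE 0.42). That call did not pass without the migrated H3K9me3 library of set 1, at -0.70 (adjusted p = 0.135). All 7 of these values passed in the full data. The other window of C20orf166-AS1, on the antisense strand, lay at -0.66 (SE 0.36) and was not called. DNAJC3-AS1, at the gene of a chaperone of the endoplasmic reticulum and called a divergent transcript (DNAJC3-DT) in RefSeq, lay at -3.46 (SE 0.48) and -2.72 (SE 0.51) on its 2 windows, with 0 to 2 H3K9me3 reads per library beside 8 to 55 input reads. With a mean below 20 reads, TPRG1-AS1 at -3.38, NEXN-AS1 at -3.26, HTT-AS1 at -3.24 and UBE2E1-AS1 at -2.90 were also lower than RUSC1-AS1, and were named after their values were seen.

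**Figure D2:**
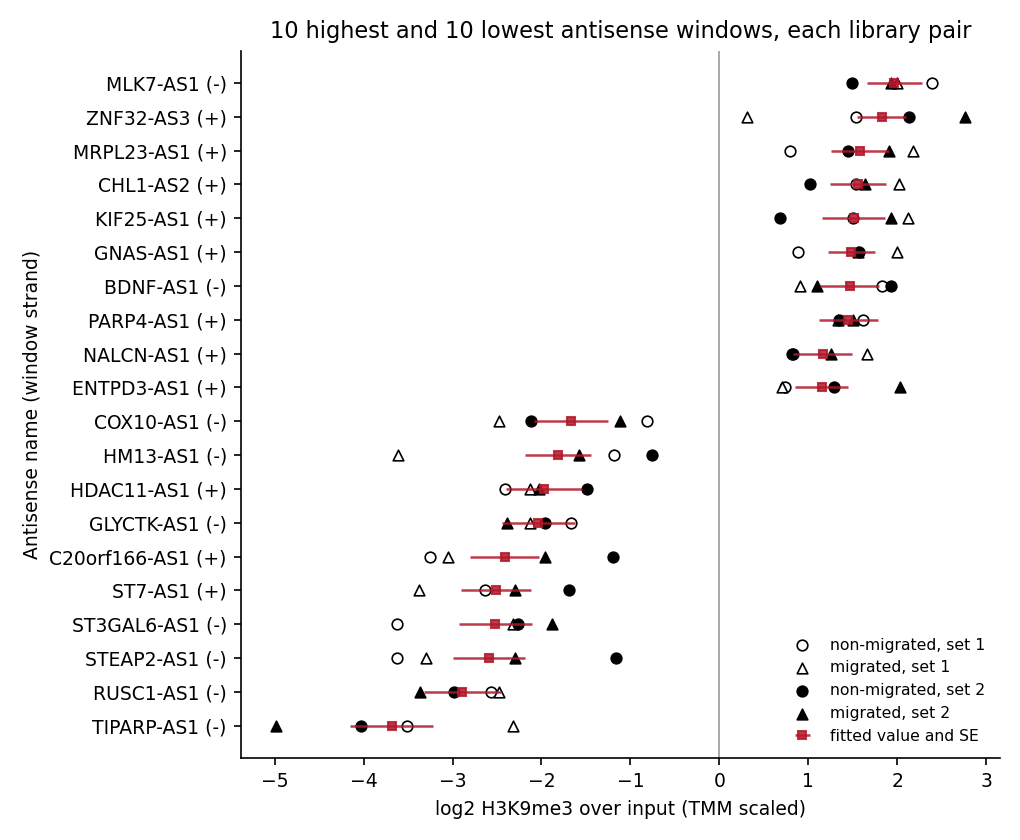
The horizontal axis gives log2 of H3K9me3 over input for the 10 highest and 10 lowest called antisense windows with a mean of at least 20 reads, 1 window per name. Circles and triangles are the non-migrated and migrated library pairs of set 1 (open) and set 2 (filled), and red squares with bars are the fitted values with SE; all pairs of the upper 10 lie above 0 and all pairs of the lower 10 lie below it.

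Counted by name, 14 of the 79 tested names had an enriched window, 40 had a lower one and 26 had neither. The matching shares over all names were not computed, so the counts by name are a description. ENTPD3-AS1 was the single name with both. Among the names with at least 2 windows, all windows were enriched in 4 and all were lower in 18. The calls were made on the same reads, so the following shares only describe them. The 20 enriched windows drew 11.5% to 12.96% of the reads in antisense windows in the 4 input libraries and 31.4% to 42.3% in the 4 H3K9me3 libraries. The 61 lower windows drew 44.0% to 47.3% in input and 11.8% to 17.5% in H3K9me3.

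The antisense windows were also grouped by the family of the sense gene. Over all tested windows 15.9% were enriched and 35.2% lower, and most families here hold too few windows to compare with that. The 6 windows at C2H2 zinc finger genes had 3 enriched and 0 lower, with a median of 0.91, but 5 of the 6 are those of ZNF32-AS3. The sixth, of ZNF503-AS1, lay at 0.23 (SE 0.38). Of 3 windows at imprinted genes 2 were enriched, both of GNAS-AS1, while KCNQ1-AS1, at the imprinted potassium channel locus on chromosome 11, lay at -0.39 (SE 0.46, adjusted p = 0.494). The 7 windows at ion channel and transmitter receptor genes had 2 enriched and 2 lower. The 1 window at an adhesion or matrix gene lay at 0.72 and did not pass, and no tested window was at a solute carrier gene. None of the 3 windows of DLX6-AS1, an antisense RNA of a homeobox gene cluster, passed (-0.33, 0.03 and 0.45). Nor did the windows at cell cycle and DNA repair genes, which were TP73-AS1 at 0.81 and 0.60 and MCM3AP-AS1 at -0.74 (adjusted p = 0.0906, 0.115 and 0.0751). Both TP73-AS1 windows passed as enriched with no filter on low reads, with a mean of at least 20 reads and with 2 added to each count. With the deposited constants they lay at -0.06 and -0.39 and did not pass. MCM3AP-AS1 passed as lower with median-of-ratios factors and with the deposited constants. The 126 windows in no family had 13 enriched and 59 lower (10.3% and 46.8%). ZEB1-AS1, at the gene of a transcription factor of epithelial-mesenchymal transition, was lower on both windows, at -2.19 (SE 0.47, adjusted p = 0.000255) and -1.54 (SE 0.47, adjusted p = 0.00643). The second call did not pass with 2 added to each count (adjusted p = 0.0578), without the migrated input of set 1 (0.106) or without the non-migrated input of set 2 (0.189).

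Windows that carry 1 antisense name were compared with each other. Of 83 pairs of windows with the same antisense name that shared no base and lay within 250 kb, 18 differed by limma's test on the difference, which is 21.7%, against a background of 31.9% over all 16243 such pairs of 1 name. Among pairs under 5 kb apart it was 5 of 28, against 24.8% of 1764. The antisense-strand window was the lower in 11 and the higher in 3 of the 58 pairs on opposite strands, and 44 did not pass. These pairs come from 38 names, and some share a window, as at STEAP2-AS1 and C13orf44-AS1. The share in each direction over all names was not computed, so these counts only describe the pairs. The median of these 58 differences was -0.01 and the median size, without sign, was 0.72 on the log2 scale. A pair that did not pass is not shown to be alike. This comparison was added after the files had been seen, and the names below were chosen after their values were known. The count of 18 differing pairs fell without the migrated input of set 1 and without the non-migrated input of set 2. So did the count over all pairs of 1 name.

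TPRG1-AS1 gave the sharpest step. Its minus-strand window, on the antisense strand, held 5 and 0 H3K9me3 reads in set 2 beside 61 and 58 input reads, a value of -3.38 (SE 0.47). The plus-strand window, 2.33 kb away, held 40 and 21 beside 45 and 48, a value of -0.51 (SE 0.37, adjusted p = 0.259). The difference of -2.91 (SE 0.60) had 1 sign in both sets and fractions. NEXN-AS1, at the gene of an actin-binding protein of muscle, differed by -2.87 (SE 0.68) over 2.93 kb, which did not pass without the non-migrated H3K9me3 library of set 1 (adjusted p = 0.0985) or without the migrated one of set 2 (0.0805). The step ran the other way at SMAD5-AS1, at a gene of the bone morphogenetic protein pathway, where the antisense-strand window was higher by 1.90 (SE 0.60). There the call was lost without the non-migrated input of set 1 (adjusted p = 0.0874) or the migrated input of set 2 (0.0793).

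ENTPD3-AS1 was the only name with windows called in opposite directions. Its plus-strand window (chr3:40426647-40428747) was enriched at 1.15 (SE 0.30), with 90 and 83 H3K9me3 reads beside 51 and 34 input reads in set 2. Its minus-strand window (chr3:40494720-40496820), 68.1 kb away, was lower at -1.66 (SE 0.42), with 4 and 5 beside 44 and 48, and shares bases with a window of RPL14, a ribosomal protein gene. The RefSeq promoter of the antisense gene is the one printed above. The difference was -2.79 (SE 0.52) and had 1 sign in all 4 library pairs. At STEAP2-AS1, over 42.2 kb, the values were -2.59 (SE 0.41) on the antisense strand and 0.58 on the sense strand, which was not called enriched (SE 0.32, adjusted p = 0.129), a difference of -3.20 (SE 0.52).

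**Figure D3:**
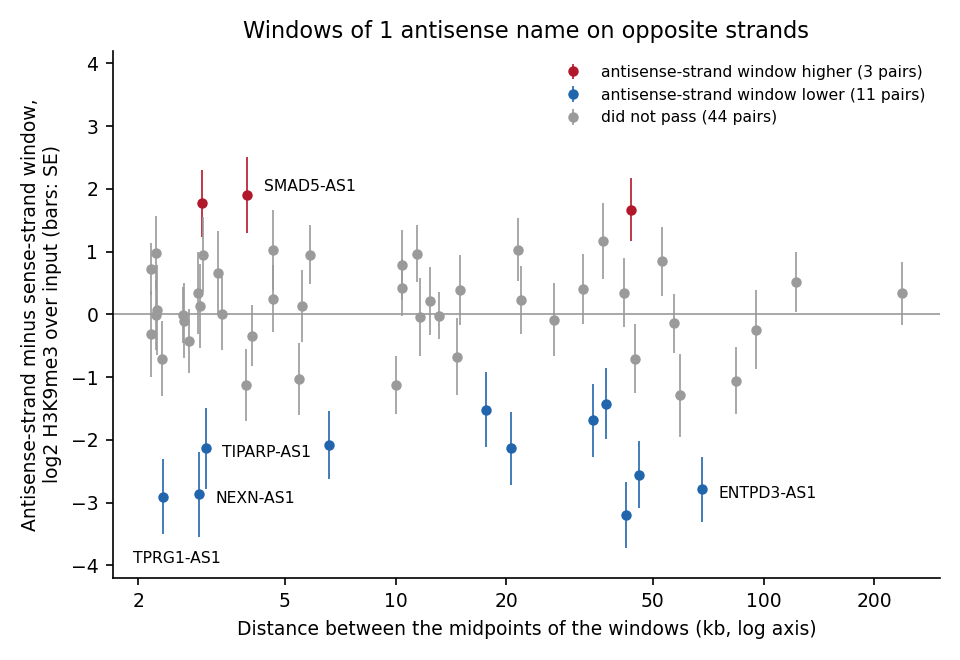
For each of the 58 pairs of windows that carry 1 antisense name on opposite strands, the vertical axis gives the antisense-strand minus the sense-strand value (log2 of H3K9me3 over input, bars are SE) and the horizontal axis the distance between the windows in kb on a log scale. Most pairs (44) did not pass, and of the others 11 lie below 0 and 3 above it.

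For 48 names the tables also held a window named for the sense gene. Each antisense window was set against the nearest such window that shared no base with it, which gave 62 pairs within 250 kb that could be tested, from 41 names and 43 sense-named windows, at distances of 2.94 to 200 kb. Another 8 pairs were farther apart and 3 failed the read filter. The sense-named window need not be the sense promoter: of the tested pairs, 29 had it on the strand of the sense gene, 25 on the opposite strand, and for the rest the strand was unknown. The window with the antisense name also lay on the sense gene's strand in some pairs. Pairs that share a window are not independent.

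Antisense and sense-named windows differed in 28 of the 62 pairs, or 45.2%, with the antisense window higher in 13 and lower in 15. Over all 175031 neighbouring pairs of differently named autosomal windows, the background was 39.2%. At matched distance the shares were 33.3% against 27.6% under 5 kb, 52.4% against 34.0% from 5 to 25 kb, and 43.8% against 39.6% beyond. The median difference was -0.15, and across the 62 pairs Pearson's r between both values was 0.06, a description of pairs that share libraries. In 24 of the 28 called pairs the difference had 1 sign in both sets and fractions, and 11 passed in every alternative that could test them. The calls rest on these same library pairs, so their agreement in sign is a description. Fewer pairs with the antisense window higher were called in each fit without 1 input library. Pairs with it lower were fewer without the migrated input of set 1 or the non-migrated input of set 2. Calls over all neighbouring pairs were also fewer in each of these fits.

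By call, 7 of the 62 pairs had both windows lower, 2 had both enriched and 15 had neither. In 4 pairs an enriched antisense window faced a lower sense-named window, and in 2 the reverse held. The 4 are those of GNAS-AS1 and MRPL23-AS1. Shares of such calls over all neighbouring pairs were not computed, so these counts only describe the pairs. At GNAS, the gene of the stimulatory G protein alpha subunit, the sense-named window (chr20:57463781-57465881, on the strand opposite to GNAS) held 10 and 9 H3K9me3 reads beside 87 and 91 input reads in set 2, a value of -2.14 (SE 0.44). The GNAS-AS1 windows, 51.0 and 37.9 kb away, were higher by 3.59 (SE 0.49, adjusted p = 9.84e-07) and 3.59 (SE 0.52, adjusted p = 2.33e-06). Each was higher in all 4 library pairs, which the rule for naming pairs required.

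The window named MRPL23, of unknown strand relative to that gene, was lower at -2.15 (SE 0.46). It held 9 and 4 H3K9me3 reads beside 62 and 41 input reads in set 2. The MRPL23-AS1 windows 43.8 and 44.5 kb away were higher by 3.75 (SE 0.56) and 3.13 (SE 0.56). DNAJC27-AS1 lay at -0.33 (SE 0.36, adjusted p = 0.464 by limma) and was not called, and its window is on the sense gene's strand. The window of DNAJC27, the gene of a small GTPase, held 2 and 0 H3K9me3 reads beside 61 and 46 in set 2. The window with the antisense name was higher than it by 3.16 (SE 0.60, adjusted p = 9.31e-05 by limma). GAS6-AS1 lay 2.15 (SE 0.61) above the window of GAS6, which encodes a ligand of the TAM receptor kinases, a call lost without the non-migrated H3K9me3 library of set 1 (adjusted p = 0.0974) or the migrated one of set 2 (0.0806).

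In the other direction stood DNAJC3-AS1. The window named DNAJC3 (chr13:96346718-96350133, on the strand opposite to that gene) was enriched at 0.98 (SE 0.30), with 50 and 43 H3K9me3 reads beside 43 and 36 input reads in set 2. The antisense-strand window, 18.3 kb away, differed from it by -4.42 (SE 0.56, adjusted p = 2.73e-07 by limma) and the other by -3.65 (SE 0.59, adjusted p = 9.87e-06). Both differences had 1 sign in all 4 library pairs, which the rule for naming pairs required. ST3GAL6-AS1 differed from the window of ST3GAL6 by -2.45 (SE 0.54) on its antisense-strand window. ST7-AS1 differed from that of ST7 by -2.03 (SE 0.57) on its antisense-strand window and by -1.96 (SE 0.54) on its sense-strand window. The windows named ST3GAL6 and ST7 also lie on the strand opposite to their gene. CYP1B1-AS1, at a cytochrome P450 gene, was lower on its antisense-strand window at -1.61 (SE 0.43). The window named CYP1B1, of unknown strand relative to that gene, lay at 0.25 (SE 0.33), a difference of -1.83 (SE 0.54, adjusted p = 0.00703 by limma). The sense-strand window of CYP1B1-AS1 lay at 0.49 (SE 0.33), and its difference from CYP1B1 of 0.25 (SE 0.46, adjusted p = 0.707) did not pass.

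**Figure D4:**
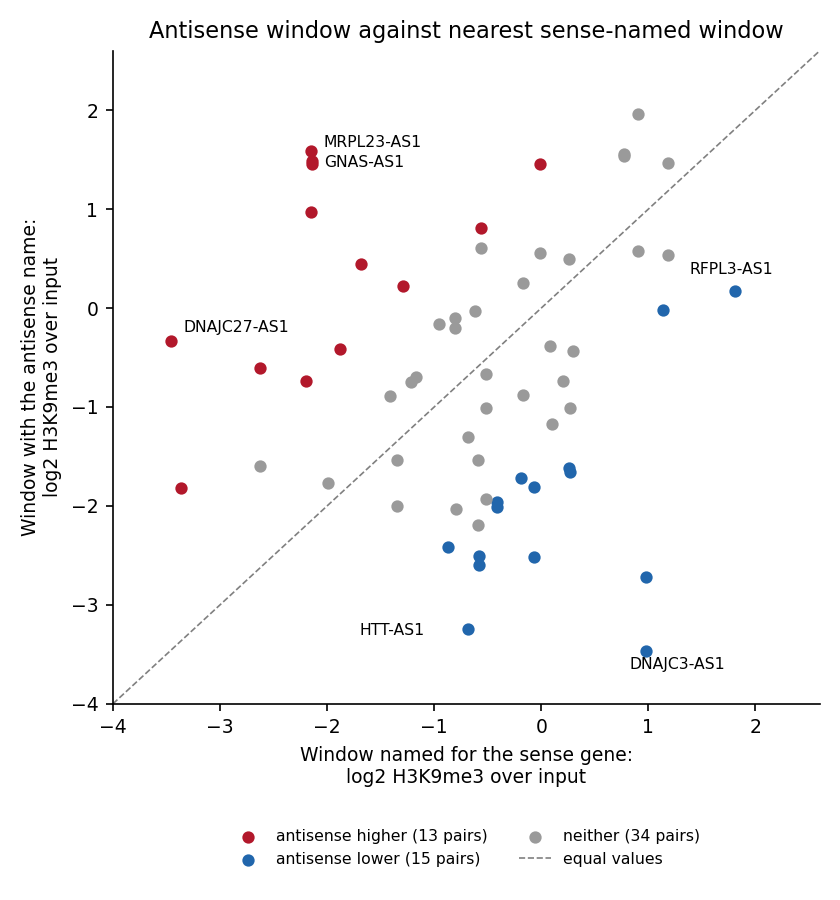
Each point is 1 of the 62 tested pairs, with the log2 of H3K9me3 over input of the sense-named window on the horizontal axis and of the antisense window on the vertical axis, and the dashed line marking equal values. The 13 pairs with the antisense window higher include GNAS-AS1 and MRPL23-AS1 at the upper left, and the 15 with it lower include DNAJC3-AS1 at the lower right.

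The RefSeq starts of the antisense genes were then set beside the values of their antisense-strand windows. Whether a start lies within the window it is set beside was not checked for any name. A promoter was counted as CpG-rich with a GC content of at least 50% and a ratio of observed to expected CG of at least 0.6, searched as the letters CG, which read alike on both strands. Of 65 starts of 58 matched names 56.9% were CpG-rich, against 47.1% of 33725 autosomal RefSeq promoters of the same length. For 52 names an antisense-strand window had been tested. The 26 names with CpG-rich starts had 26 such windows, 1 enriched and 19 lower, with a median of -1.55. The 25 names with CpG-poor starts had 31, 6 enriched and 7 lower, with a median over the means of the names of -0.29. Of those 6 enriched windows, 3 are of ZNF32-AS3. The enriched CpG-rich one was CHL1-AS2.

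The same order held over all autosomal windows on the strand of the RefSeq gene they are named for, where 8.62% of 7180 CpG-rich and 17.5% of 3547 CpG-poor windows were enriched and 54.9% and 22.6% were lower. Across the 52 names Spearman's rho between the number of CG and the window value was -0.34 and Pearson's r -0.33, as a description only, since the windows share libraries. GC content moved with it, with a median of 72% in CpG-rich and 46.7% in CpG-poor starts, and its part in the result was not tested. NEXN-AS1, with 5 CG and a value of -3.26, and CHL1-AS2, with 25 and 1.54, went against that order and were chosen after their values were seen.

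**Figure D5:**
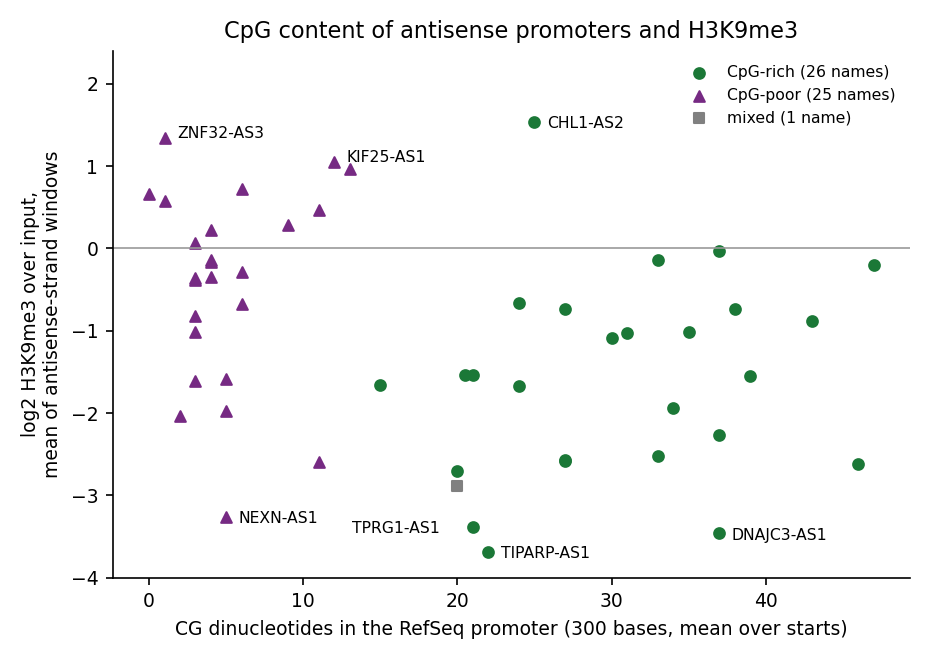
Each point is 1 of 52 antisense names, with the number of CG dinucleotides in its 300-base RefSeq promoter on the horizontal axis and the mean log2 of H3K9me3 over input of its antisense-strand windows on the vertical axis. CpG-rich promoters (26) lie below 0 except that of CHL1-AS2, while CpG-poor ones (25) lie on both sides.

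Between the fractions no antisense window passed. The change in H3K9me3 over input from non-migrated to migrated cells had adjusted p = 0.999 or more in all 148 by limma, as in all 36440 windows (0% called), and limma without weights also called 0. At an unadjusted p under 0.05 there were 8 antisense windows (5.41%) and 1286 of all windows (3.53%). The median change was -0.12 on the log2 scale for antisense windows and -0.01 for all windows. Higher values in migrated cells were seen in 70 of the 148, and 79 moved the same way in both sets.

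The 3 antisense windows of smallest p, none of which passed after adjustment, show how the fractions scatter. At the plus-strand window of KIF25-AS1 the log2 of H3K9me3 over input in set 1 was 1.497 for non-migrated and 2.12 for migrated cells, and in set 2 it was 0.68 and 1.93, a fitted difference of 1.13 (unadjusted p = 0.0165). The minus-strand window of the same name had a difference of -0.31 (unadjusted p = 0.622). CLRN1-AS1, at a gene of the inner ear and retina, had a difference of -1.71 (unadjusted p = 0.0175) at chr3:150611989-150614089, where migrated cells of set 1 held 0 H3K9me3 reads. CYP1B1-AS1 had one of -2.02 (unadjusted p = 0.0206) on its antisense-strand window, from 5 and 9 H3K9me3 reads in non-migrated to 0 and 3 in migrated cells beside 11, 32, 18 and 41 input reads. Leaving out the H3K9me3 library of set 2 gave 7 changed antisense windows for non-migrated and 10 for migrated cells, or 4.79% and 6.85%, near the 3.85% and 5.17% of all windows called in the same fits. These are fits in which that group rests on the shallow set 1 alone and its single library is assumed to vary like the others.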

How the data were processed

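The data are H3K9me3 and input reads of 2 fractions of SiHa cells in 2 replicate sets (8 libraries). The authors deposited log2 values for promoter windows in hg19, mostly 2100 bases wide with 2000 upstream of a start and 100 downstream. FastQC 0.11.5, Bowtie2 2.2.9 and SAMtools 1.3 are named in the submitters' processing notes; the method of read counting was not stated there. In each library the lowest deposited value was taken as no reads and the next lowest as 1 read. On that reading all other values, taken back from log2, were whole reads times 1 constant per library in 100% of cases (tolerance 0.01). Reads were recovered in this way. The 151 windows on chromosomes 1 to 22 whose name ends in AS and a digit, and the lists, were chosen with earlier results of these data known.

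A window was tested if 2 or more libraries reached the level that 10 reads have in the median library and its total was at least 15; 3 of the 151 were not (C4A-AS1, C4B-AS1 and 1 window of STEAP2-AS1). Scaling used the trimmed mean of M values (30% of ratios and 5% of levels trimmed). Log2 of reads plus 0.5 per scaled library size was fitted with limma 3.58.1 (R 4.3.3) with voom-type precision weights, in a model of set, antibody, set by antibody, fraction and fraction by antibody, over all 36440 windows. Calls are at an adjusted p of 0.05. Neighbouring windows were compared by the same model on their difference. The series text pairs the libraries in 2 sets, so the set is a block; deviations of libraries of 1 set correlated at 0.05 to 0.47 across windows. The title of 1 set 1 library (H3K9me3, migrated) and its description differ in the replicate number, and the title was followed.

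The windows named were the 10 highest and 10 lowest that passed with a mean of at least 20 reads, 1 per name, the 3 of smallest p between fractions, the 6 largest differences from the sense window in each direction among called pairs of 1 sign in both sets and fractions, and a list of known antisense genes; others are said to be chosen after their values were seen. RefSeq (GRCh38.p14) gave strands and promoters; of 81 names, 76 matched a RefSeq gene by symbol or synonym. No RefSeq coordinate was compared with an hg19 one. Alternatives tried were no block, other scalings, filters and added counts, limma without weights, another contrast error, each library left out, and another choice of sense window. Results with that other sense window are not given here, and all counts of antisense-sense pairs keep the nearest one.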

Additional observations from a re-analysis of the deposited data

How the results depend on the processing

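Without the replicate block, 24 antisense windows were enriched, 59 lower, 12 pairs had the antisense window higher and 14 lower, 16 same-name pairs differed, and 0 windows changed between the fractions, so the unpaired fit moved no count by over 1.5 times. The counts that moved further were, for enriched windows, 0 with the deposited constants, 32 with no read filter and 38 with 2 added to each count; for lower windows, 16 with a mean of at least 20 reads; for pairs with the antisense window higher, 5 with that filter, 8 with limma without weights and 7 with approximate contrast errors; for pairs with it lower, 6 with that filter; and for same-name pairs, 6 with that filter. A stricter filter leaves fewer windows and pairs to test (73 windows, 25 antisense-sense pairs, 29 same-name pairs). For the others the cause was not tested.

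Leaving out each library in turn gave 13 to 40 enriched windows, 33 to 68 lower, 0 to 10 changed between the fractions, 6 to 15 pairs with the antisense window higher, 8 to 19 with it lower and 9 to 26 differing same-name pairs. Over 38 named windows and all alternatives, 541 of 600 values kept their direction and their side of the threshold, 21 no longer passed, 21 now passed, and 17 values that did not pass changed sign. No called value changed sign. Of the 28 called antisense-sense pairs 11 passed in every alternative, and of the 18 same-name pairs 6 did. Depth limits what set 1 can show: its migrated H3K9me3 library held a median of 1 read per window and none in 30.5% of windows.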
